A study of Mus musculus with 6 samples.

Results

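The genes described here encode the pyruvate dehydrogenase (PDH) complex (*Pdha1*, *Pdhb*, *Dlat* and *Dld*) and enzymes of the tricarboxylic acid (TCA) cycle (*Cs*, *Idh3a*, *Ogdh*, *Fh1* and *Mdh2*). These 9 genes of the 31053 listed were chosen by name, with *Dlat* set beside its complex partners, and the choice was made with EPR values of the same 6 libraries in view. EPR, edits per read, is the number of C-to-U edits called in the exons of a gene divided by the reads counted for it. Differences in EPR between the groups are therefore a description of the 9 genes, and nothing is concluded from whether they passed the threshold set for all genes. All 9 genes had an EPR above 0 in each of the 6 libraries, as had 8046 genes in all. Such genes are called edited below.

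EPR was measured by bulk RNA-seq of polyA RNA from primary cortical neurons of wild-type C57BL/6J mouse embryos (embryonic day 18). In 3 libraries the neurons carried RPL10A-STAMP and in 3 RPL22-STAMP, in which the cytidine deaminase APOBEC1 is fused to the large-subunit ribosomal protein RPL10A or RPL22, so that edits mark RNAs that meet the tagged ribosomes. The neurons of both groups received floxuridine at day in vitro (DIV) 3, which limits dividing cells, and an AAV with the construct at DIV 6, and were collected at DIV 14 after 48 h of doxycycline at 1 µg per ml. The construct was doxycycline-inducible in both groups, with the transactivator under a synapsin promoter for neuronal expression, and neurons without a construct or with RPS2-STAMP were not analysed here. Values of single libraries are given in the order of replicates 1, 2 and 3. The depth behind each ratio is unknown, so no counting error is given.

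The PDH complex links glycolysis to the TCA cycle in the mitochondrial matrix. Its E1 component, a tetramer of the alpha subunit encoded by *Pdha1* and the beta subunit encoded by *Pdhb*, decarboxylates pyruvate, its E2 core, encoded by *Dlat*, transfers the acetyl group to coenzyme A through lipoyl arms, and its E3 component, encoded by *Dld*, reoxidises the lipoyl groups. The cycle then oxidises acetyl-CoA and supplies the electrons for most of the ATP that neurons use for ion pumping and synaptic transmission. All of these proteins are encoded in the nucleus, translated in the cytosol and imported into mitochondria.

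APOBEC1 prefers a C next to A or U, and the genes differed in how many such bases they offer. The stretches of 150 bases around the middle of the coding sequence are shown for the 4 genes of the PDH complex and for *Mdh2*, the member whose transcript had the highest GC content. Capitals mark each C that has A or T on both sides, and the sequences are those of GENCODE release 21 transcripts (GRCm38), 5′ to 3′.
Pdha1: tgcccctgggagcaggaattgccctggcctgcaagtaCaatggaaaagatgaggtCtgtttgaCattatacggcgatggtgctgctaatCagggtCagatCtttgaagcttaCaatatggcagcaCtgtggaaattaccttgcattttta
Pdhb: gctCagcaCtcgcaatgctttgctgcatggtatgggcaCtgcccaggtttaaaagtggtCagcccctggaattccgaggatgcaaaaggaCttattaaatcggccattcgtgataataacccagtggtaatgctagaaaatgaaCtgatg
Dlat: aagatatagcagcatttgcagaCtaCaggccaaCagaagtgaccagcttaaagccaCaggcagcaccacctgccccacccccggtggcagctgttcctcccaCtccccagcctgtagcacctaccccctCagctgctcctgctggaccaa
Dld: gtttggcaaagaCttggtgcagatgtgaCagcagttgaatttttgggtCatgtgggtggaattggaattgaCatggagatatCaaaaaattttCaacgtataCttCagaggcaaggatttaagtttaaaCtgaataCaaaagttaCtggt
Mdh2: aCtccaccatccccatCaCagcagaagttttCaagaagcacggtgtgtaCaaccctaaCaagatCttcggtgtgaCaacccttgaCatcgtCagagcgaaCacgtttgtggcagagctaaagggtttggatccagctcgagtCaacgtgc
The *Dld* stretch held 11 such C among 16, at positions 691 to 840 of a coding sequence of 1530 bases. The *Dlat* stretch, positions 890 to 1039 of 1929, held 6 among 59. The stretches of *Pdha1* (positions 512 to 661 of 1173), *Pdhb* (466 to 615 of 1080) and *Mdh2* (434 to 583 of 1017) held 8 among 29, 6 among 32 and 12 among 41. Over the whole transcript, 39.3% of the C of *Dld* lay between A or U, against 32.2% for *Pdha1*, 28.7% for *Pdhb*, 27.3% for *Dlat* and 23.7% for *Mdh2*. The median over 8039 edited genes with a transcript was 29.4% (quartiles 24.5% and 34.4%), so that *Dld* lay at the 91.6th percentile and *Mdh2* at the 21.6th.

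Within the PDH complex, EPR with RPL10A-STAMP was above that with RPL22-STAMP in every library for *Pdha1*, *Dlat* and *Dld*, and the libraries overlapped for *Pdhb*. *Pdha1* (ENSMUSG00000031299), which spans 160122209 to 160138413 of chromosome X (minus strand, GRCm38 here and below), had an EPR of 0.0389, 0.0453 and 0.0464 in the RPL10A-STAMP libraries against 0.0237, 0.0253 and 0.0282 in the RPL22-STAMP libraries. On average EPR was 0.0435 ± 0.00406 (SD, n = 3) and 0.0257 ± 0.00227 (SD, n = 3), a ratio of 1.69. Exons of *Map3k15* on the opposite strand cover 16.1% of the exon bases of *Pdha1*. Per the methods, the libraries were made with a stranded mRNA kit. The strand setting of the read counting is not given in the sources used here, and if strand was not used there, reads of these genes cannot be told apart.

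*Pdhb* (ENSMUSG00000021748), the E1 partner of *Pdha1*, spans 8165996 to 8173025 of chromosome 14 (minus strand). Its EPR was 0.00817, 0.0104 and 0.00802 in the RPL10A-STAMP libraries against 0.00642, 0.00870 and 0.00864 in the RPL22-STAMP libraries. The groups overlapped, with means of 0.00888 ± 0.00135 (SD, n = 3) and 0.00792 ± 0.00130 (SD, n = 3). Although the proteins form one tetramer, the EPR of *Pdha1* was 4.34 to 5.79 times that of *Pdhb* in the RPL10A-STAMP libraries and 2.90 to 3.69 times in the RPL22-STAMP libraries.

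*Dlat* (ENSMUSG00000000168), which encodes the acetyltransferase core, spans 50634633 to 50659780 of chromosome 9 (minus strand). Its EPR was 0.0296, 0.0443 and 0.0632 in the RPL10A-STAMP libraries against 0.0133, 0.0176 and 0.0202 in the RPL22-STAMP libraries. The groups did not overlap, and the RPL10A-STAMP libraries were more than 2-fold apart among themselves. On average EPR was 0.0457 ± 0.0168 (SD, n = 3) and 0.0170 ± 0.00345 (SD, n = 3), a ratio of 2.68. The libraries also differed in their general level, as the median EPR over the 8046 genes was 0.0120, 0.0153 and 0.0161 in the RPL10A-STAMP libraries against 0.00907, 0.0129 and 0.0112 in the RPL22-STAMP libraries. When each library was scaled to the same median, *Dlat* had 0.0310, 0.0364 and 0.0491 in the RPL10A-STAMP libraries against 0.0184, 0.0171 and 0.0225 in the others. On this scale its coefficient of variation, 23.9% and 14.6%, was near or below the median over all edited genes, 23.8% and 28.2%.

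*Dld* (ENSMUSG00000020664), which encodes E3 and also serves the other lipoyl-dependent dehydrogenases, spans 31331277 to 31351453 of chromosome 12 (minus strand). Its EPR was 0.00922, 0.0168 and 0.0158 in the RPL10A-STAMP libraries against 0.00388, 0.00459 and 0.00465 in the RPL22-STAMP libraries. The lowest RPL10A-STAMP library was at nearly 2 times the highest RPL22-STAMP library, and the ratio of the means, 0.0139 ± 0.00412 (SD, n = 3) over 0.00437 ± 0.000430 (SD, n = 3), was 3.19, the highest among the 9 genes. No run of 50 or more bases of any of the 9 transcripts had an exact copy elsewhere in the nuclear genome, and none shared exon bases with another gene of its strand. As these are bulk libraries, EPR is pooled over all cells, and the cells behind a difference cannot be told.

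**Figure D1:**
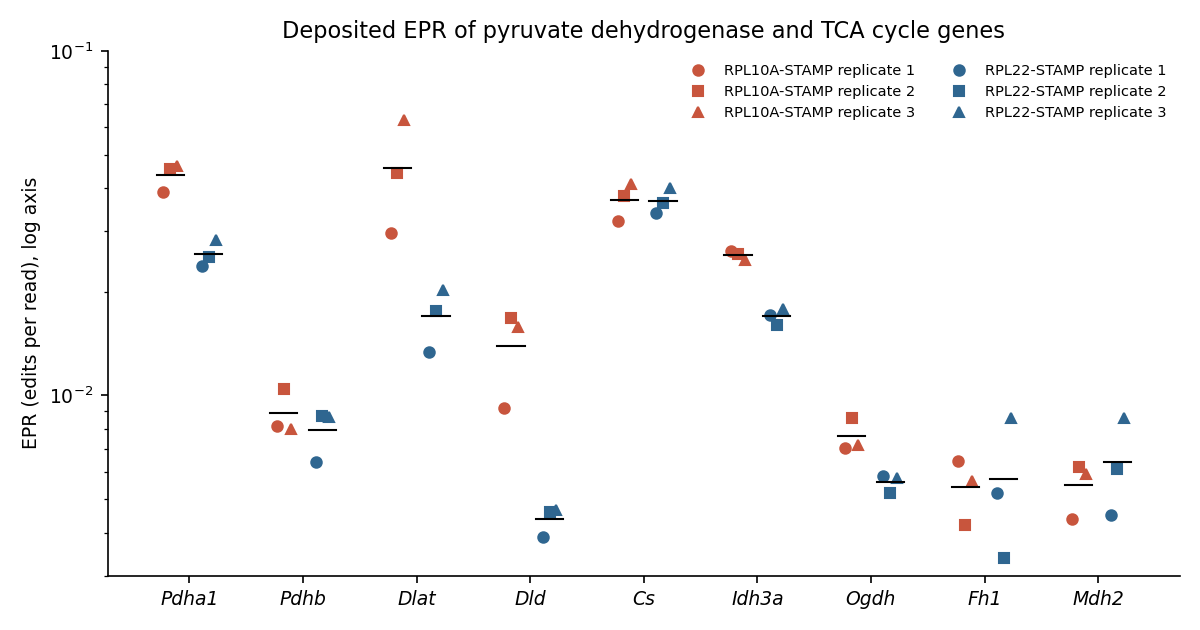
EPR (edits per read, log axis) as deposited, for the 9 genes in the 3 RPL10A-STAMP (red) and 3 RPL22-STAMP (blue) libraries, with a symbol for each replicate number and a black line at the mean of each group. The groups are separate for *Pdha1*, *Dlat*, *Dld*, *Idh3a* and *Ogdh*, with RPL10A-STAMP above, and overlap for *Pdhb*, *Cs*, *Fh1* and *Mdh2*.

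Ratios between partners within a library do not depend on how libraries are scaled. The EPR of *Dlat* was 3.62, 4.25 and 7.88 times that of *Pdhb* in the RPL10A-STAMP libraries against 2.08, 2.02 and 2.34 times in the RPL22-STAMP libraries, so the groups did not overlap. The ratio of *Dlat* to *Pdha1* was 0.761 to 1.36 with RPL10A-STAMP and 0.563 to 0.717 with RPL22-STAMP, again without overlap. The ratio of *Dld* to *Pdhb* was 1.13 to 1.97 with RPL10A-STAMP and 0.527 to 0.604 with RPL22-STAMP, so that the order of this pair turned between the groups. The ratio of *Dlat* to *Dld* overlapped, with 2.64 to 4.00 and 3.44 to 4.34. The E2 and E3 genes were thus both higher against *Pdhb* in the RPL10A-STAMP libraries, while the ranges of their own ratio overlapped. *Pdha1* was higher against *Pdhb* as well, with 4.34 to 5.79 against 2.90 to 3.69, so this was not particular to E2 and E3. The share of other gene pairs whose ratios separate in this way was not determined.

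Among the cycle enzymes, ratios of the means (RPL10A-STAMP over RPL22-STAMP) ran from 0.859 to 1.51. Those of *Pdha1*, *Dlat* and *Dld* were above this range, while that of *Pdhb*, 1.12, lay within it. *Cs* (ENSMUSG00000005683), which encodes citrate synthase, the enzyme of the entry step, spans 128337734 to 128362479 of chromosome 10 (plus strand). Its EPR was 0.0322, 0.0379 and 0.0410 in the RPL10A-STAMP libraries against 0.0338, 0.0363 and 0.0400 in the RPL22-STAMP libraries. These values were nearly equal, with means of 0.0370 ± 0.00448 (SD, n = 3) and 0.0367 ± 0.00312 (SD, n = 3), whereas after scaling to the median gene all RPL22-STAMP libraries (0.0352 to 0.0467) were above all RPL10A-STAMP libraries (0.0311 to 0.0337).

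*Idh3a* (ENSMUSG00000032279), which encodes the catalytic alpha subunit of the NAD-dependent isocitrate dehydrogenase, spans 54586334 to 54604661 of chromosome 9 (plus strand). Its EPR was 0.0262, 0.0258 and 0.0248 in the RPL10A-STAMP libraries against 0.0172, 0.0160 and 0.0178 in the RPL22-STAMP libraries. As deposited it had the lowest SD of the 9 genes relative to the mean in both groups, with means of 0.0256 ± 0.000723 (SD, n = 3) and 0.0170 ± 0.000908 (SD, n = 3) and no overlap, but the groups overlapped after scaling. The EPR of *Idh3a* was 2.01 to 2.34 times that of *Idh3b*, a further subunit of the same enzyme, with RPL10A-STAMP and 1.07 to 1.33 times with RPL22-STAMP.

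*Ogdh* (ENSMUSG00000020456) encodes the E1 component of the alpha-ketoglutarate dehydrogenase complex, which also uses *Dld*, and spans 6291633 to 6356642 of chromosome 11 (plus strand). Its EPR was 0.00705, 0.00860 and 0.00718 in the RPL10A-STAMP libraries against 0.00584, 0.00522 and 0.00577 in the RPL22-STAMP libraries. The groups were separate as deposited and overlapped after scaling, as for *Idh3a*.

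*Fh1* (ENSMUSG00000026526) encodes fumarase and spans 175600374 to 175625635 of chromosome 1 (minus strand). Its EPR was 0.00645, 0.00422 and 0.00566 in the RPL10A-STAMP libraries against 0.00522, 0.00337 and 0.00862 in the RPL22-STAMP libraries. The RPL22-STAMP libraries alone spanned more than the whole range of the other group. *Mdh2* (ENSMUSG00000019179) encodes the mitochondrial malate dehydrogenase, which closes the cycle, and spans 135778480 to 135790398 of chromosome 5 (plus strand). Its EPR was 0.00438, 0.00620 and 0.00593 in the RPL10A-STAMP libraries against 0.00449, 0.00610 and 0.00863 in the RPL22-STAMP libraries. As deposited the groups overlapped, and after scaling the RPL22-STAMP libraries (0.00593 to 0.00962) were above the RPL10A-STAMP libraries (0.00458 to 0.00509).

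The same differences were placed beside those of all edited genes. As deposited, every RPL10A-STAMP library was above every RPL22-STAMP library for 5 of the 9 genes, against 28.2% of the 8046 genes, and the opposite held for none, against 6.21%. After scaling, RPL10A-STAMP was above for *Pdha1*, *Dlat* and *Dld* (20.0% of all edited genes) and RPL22-STAMP was above for *Cs* and *Mdh2* (17.1%). The log2 fold change (RPL10A-STAMP over RPL22-STAMP) on the log2(scaled EPR + 0.01) scale, which understates the change of genes with low EPR, was 0.72 (standard error 0.18) for *Dlat*, 0.54 (0.13) for *Dld*, 0.28 (0.14) for *Pdha1* and -0.10 (0.12) for *Pdhb*. It was 0.14 (0.17) for *Idh3a*, 0.02 (0.12) for *Ogdh*, -0.16 (0.17) for *Fh1*, -0.22 (0.12) for *Mdh2* and -0.30 (0.14) for *Cs*. The median over the 9 genes was 0.02, against -0.01 over the 8046 genes, of which 90% lay between -0.74 and 0.92.

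With the threshold used for all genes (limma, adjusted p under 0.05), 2 of the 9 genes, *Dlat* and *Dld*, were called, both higher with RPL10A-STAMP. Of the 8046 genes 14.3% were called, 8.51% in this direction and 5.77% in the other. Since the genes were chosen with this comparison in view, nothing is read from the count. Neither was past the threshold without any 1 of 5 libraries, with log2 fold changes of 0.57 to 0.80 for *Dlat* and 0.47 to 0.58 for *Dld*, and both were without RPL10A-STAMP replicate 1, with 0.84 and 0.62.

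**Figure D2:**
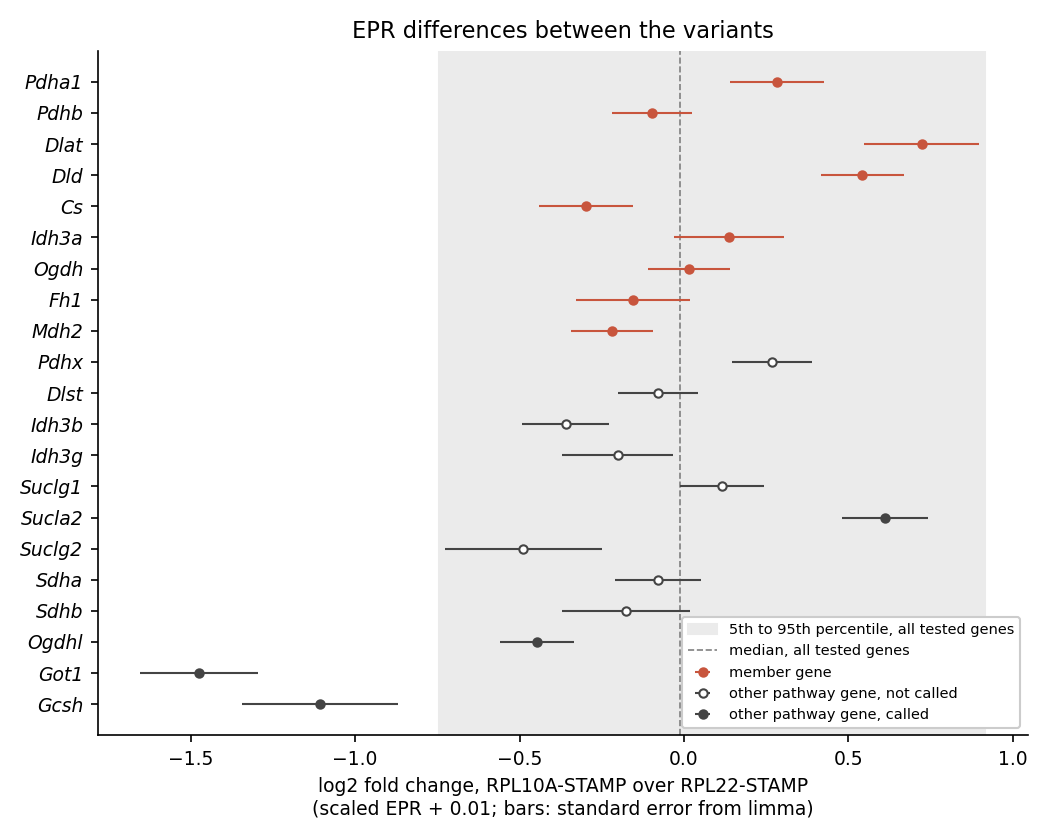
Log2 fold change, RPL10A-STAMP over RPL22-STAMP (scaled EPR + 0.01; points, with bars for the standard error from limma) of the 9 genes (red) and of the named genes of the same pathway (black, filled where called at a limma adjusted p under 0.05). The grey band spans the 5th to 95th percentile of the 8046 tested genes (-0.74 to 0.92), in which all 9 genes lie, while *Got1* and *Gcsh* lie below it.

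The level of EPR fell into an upper and a lower group of genes, with the same membership in both sets of libraries. Averaged over the 6 libraries after scaling, EPR was 0.0372 for *Cs*, 0.0338 for *Pdha1*, 0.0291 for *Dlat* and 0.0212 for *Idh3a*, and then 0.00846 for *Dld*, 0.00839 for *Pdhb*, 0.00660 for *Ogdh*, 0.00600 for *Mdh2* and 0.00579 for *Fh1*. EPR is per read of the same gene, so transcript length enters both its edits and its reads, and how the level goes with length was not tested. The step from *Idh3a* to *Dld* was the only one between neighbours whose ranges over the 6 libraries did not overlap. *Pdhb* was above *Ogdh* in each of the 6 libraries although their ranges over libraries overlapped. The order of *Pdha1* and *Dlat* and of *Dlat* and *Idh3a* held in 5 of 6 libraries each, with overlapping ranges. That of *Ogdh* and *Mdh2* and of *Mdh2* and *Fh1* held in 4 of 6 each, also with overlapping ranges. In every RPL22-STAMP library *Pdha1* was above *Dlat*. *Dlat* was above *Idh3a*, and *Ogdh* above *Mdh2*, in every RPL10A-STAMP library. None of the orders of these pairs held in every library of both variants. The order of *Cs* and *Pdha1* and of *Dld* and *Pdhb* held in 3 of 6 libraries each, and both pairs divided by variant, with *Pdha1* above *Cs* and *Dld* above *Pdhb* in 3 of 3 RPL10A-STAMP libraries and the reverse in 3 of 3 RPL22-STAMP libraries. Among all edited genes, *Cs* and *Pdha1* lay at the 92.1st and 90.3rd percentile of the level, and *Fh1* and *Mdh2* at the 8.38th and 9.40th.

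By mean EPR, the place of *Dlat* and *Dld* among the 9 genes moved with the variant, which is a description only. With RPL10A-STAMP the mean EPR of *Dlat* was the highest of the 9, and *Dld* was the fifth. *Dlat* was above *Pdha1* in only 1 of these 3 libraries, and in replicate 1 it was also below *Cs* (0.0296 against 0.0322). With RPL22-STAMP *Dlat* was the third, above *Idh3a* in 2 of 3. There the mean EPR of *Dld* was the last of the 9, below *Ogdh* in 3 of 3 libraries. In RPL22-STAMP replicate 2, however, *Fh1* was below *Dld* (0.00337 against 0.00459).

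The genes whose scaled log2 EPR followed that of *Dlat* most closely over the 6 libraries were *Prune2*, *Atrn* and *Astn1*, with Pearson correlations of 0.989, 0.984 and 0.983. These are descriptions over 6 points that fall into 2 groups, and 340 of 8045 genes (4.23%) had a correlation of 0.9 or more. *Dld* had 0.924, the 194th of the 8045 genes, *Pdha1* had 0.708 and *Pdhb* had -0.73. *Prune2* had an EPR of 0.0293, 0.0409 and 0.0510 in the RPL10A-STAMP libraries against 0.0158, 0.0226 and 0.0244, a spread much like that of *Dlat*.

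Base composition moved with the difference between the variants. Over the transcripts of 8039 genes, not independent of each other, the log2 fold change had a Spearman correlation of -0.467 with the GC content of the transcript and of 0.436 with the share of C between A or U. GC content and that share were themselves tied, with -0.932. The mean EPR correlated with the share in the RPL10A-STAMP libraries (0.336) and hardly in the RPL22-STAMP libraries (-0.0066). *Dld*, with 40.6% GC, was at the 7.56th percentile of GC content, *Dlat*, with 47.2%, at the 39.6th, and *Mdh2*, with 55.4%, at the 83.7th. *Dlat* and *Pdhb* had nearly the same GC content, 47.2% and 47.3%, and log2 fold changes of 0.72 and -0.10. When each library's trend with GC content was removed, the log2 fold change of *Dld* was 0.19 and that of *Pdha1* 0.13, while that of *Dlat* was 0.65 and that of *Mdh2* turned to 0.05. The part of composition in these differences was not tested further.

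**Figure D3:**
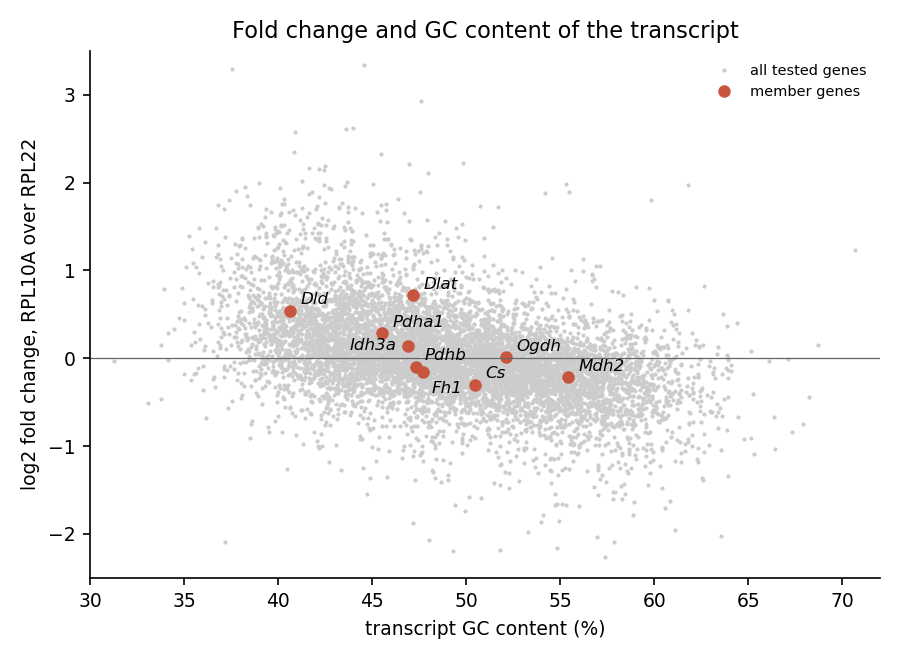
Log2 fold change, RPL10A-STAMP over RPL22-STAMP (scaled EPR + 0.01) against the GC content of the transcript in percent, for the tested genes (grey, 9 lie outside the axes or have no transcript) and the 9 genes described here (red). Fold changes are lower at higher GC content (Spearman correlation -0.467), with *Dld* at 40.6% GC, *Dlat* at 47.2% and *Mdh2* at 55.4%.

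The rest of the pathway was read from a list of 46 genes, of which 39 were edited in all 6 libraries and tested. Of the 39, 1 was higher with RPL10A-STAMP and 3 were higher with RPL22-STAMP (limma, adjusted p under 0.05). An unadjusted limma p under 0.05 was found for 8 of the 39, against 2486 of the 8046 tested genes. The share of 4 in 39 was below the 14.3% of all tested genes. Their median log2 fold change was -0.15, against -0.01 over all tested genes. As deposited, 6 of the 39 had every RPL10A-STAMP library above every RPL22-STAMP library, against 28.2% of the 8046 genes. The reverse held for 4, against 6.21%. After scaling these counts were 3, against 20.0% of the 8046 genes, and 8, against 17.1%.

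*Pdhx* encodes the E3-binding protein, which ties *Dld* protein to the *Dlat* core. Its EPR was 0.00927, 0.00934 and 0.0103 in the RPL10A-STAMP libraries against 0.00455, 0.00406 and 0.00522 in the RPL22-STAMP libraries. The groups were separate on both scales and the ratio of the means was 2.09, but the log2 fold change of 0.27 (standard error 0.12) did not pass the test (limma adjusted p = 0.189). Of the 7 regulators, *Pdk1* to *Pdk4* encode the PDH kinases that switch the complex off. *Pdp1*, *Pdp2* and *Pdpr* encode subunits of the phosphatase that switches it on. Among these 7, 6 were tested and none was called, against 14.3% of the 8046 tested genes. An unadjusted limma p under 0.05 was found for 2 of the 6, against 2486 of the 8046 tested genes. The 2 regulators were *Pdk2*, with a log2 fold change of -0.56 (limma adjusted p = 0.106), and *Pdpr*, with 0.47 (limma adjusted p = 0.138). *Pdk4* was listed at 0 in all 6 libraries.

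Among 12 further subunits and enzymes of the cycle, *Sucla2* and *Ogdhl* were called (16.7%, against 14.3% of the 8046 tested genes). *Sucla2*, which encodes the ATP-forming beta subunit of succinyl-CoA ligase, had an EPR of 0.0166, 0.0196 and 0.0231 in the RPL10A-STAMP libraries against 0.00691, 0.00646 and 0.00683 in the RPL22-STAMP libraries. It was higher with RPL10A-STAMP by a ratio of 2.93, with a log2 fold change of 0.61 (standard error 0.13, limma adjusted p = 0.0252). Its transcript had a low GC content, 43.2%, and without the trend with GC content its difference was 0.36 on the log2 scale (limma adjusted p = 0.132). The call held without RPL22-STAMP replicate 1 (limma adjusted p = 0.0347) and was lost without any 1 of the other 5 libraries (0.0685 to 0.0899).

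*Ogdhl*, a brain-expressed relative of *Ogdh*, went the other way. Its EPR was 0.00364, 0.00535 and 0.00598 in the RPL10A-STAMP libraries against 0.00635, 0.0112 and 0.00787 in the RPL22-STAMP libraries. All RPL22-STAMP libraries were higher, with a log2 fold change of -0.45 (standard error 0.11, limma adjusted p = 0.041), whereas the difference of *Ogdh* was near 0. The call was lost without any 1 of the 6 libraries (limma adjusted p 0.068 to 0.117) and without the trend with GC content (log2 fold change -0.16, limma adjusted p = 0.423).

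The other core subunits of the cycle named here did not pass the test. *Idh3b* came nearest, with a mean EPR of 0.0117 ± 0.000667 (SD, n = 3) for RPL10A-STAMP against 0.0139 ± 0.00107 (SD, n = 3), no overlap and a log2 fold change of -0.36 (limma adjusted p = 0.115). *Idh3g*, the third subunit type of the enzyme, had a log2 fold change of -0.20 (limma adjusted p = 0.457), against the 0.14 of *Idh3a*. *Dlst*, the E2 of the alpha-ketoglutarate dehydrogenase complex, had -0.08 (limma adjusted p = 0.695). *Sdha* and *Sdhb*, subunits of succinate dehydrogenase, had -0.08 and -0.18 (limma adjusted p = 0.723 and 0.581).

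Outside the cycle, none of the 6 tested genes of pyruvate entry and refilling was called by limma, against 14.3% of the 8046 tested genes. None had an unadjusted limma p under 0.05, against 2486 of the 8046. *Got1* was called among 7 genes of the malate-aspartate shuttle and cytosolic counterparts, and *Gcsh* among 7 tested genes of lipoylation and related complexes. Each is a share of 14.3%, the same as over all tested genes (14.3%). *Got1*, the cytosolic aspartate aminotransferase, had an EPR of 0.00870, 0.0119 and 0.00851 in the RPL10A-STAMP libraries against 0.0393, 0.0359 and 0.0328 in the RPL22-STAMP libraries. The groups were far apart, RPL22-STAMP was 3.71 times RPL10A-STAMP and the log2 fold change was -1.47 (standard error 0.18, limma adjusted p = 0.0048). The call held without each library in turn (limma adjusted p 0.0113 to 0.0281), and the mitochondrial *Got2* had a log2 fold change of -0.17 (limma adjusted p = 0.642).

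*Gcsh* encodes the lipoyl-carrying H protein of glycine cleavage, a further user of E3. Its EPR was 0.0161, 0.0354 and 0.0134 in the RPL10A-STAMP libraries against 0.0381, 0.0513 and 0.0420 in the RPL22-STAMP libraries. All RPL22-STAMP libraries were higher, though RPL10A-STAMP replicate 2 came close to them, and the log2 fold change was -1.11 (standard error 0.24, limma adjusted p = 0.0251). The call held without RPL10A-STAMP replicate 2 (limma adjusted p = 0.0228) and was lost without any 1 of the other 5 libraries (0.062 to 0.0719). Exact copies elsewhere in the genome covered 3.81% of its transcript.

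**Figure D4:**
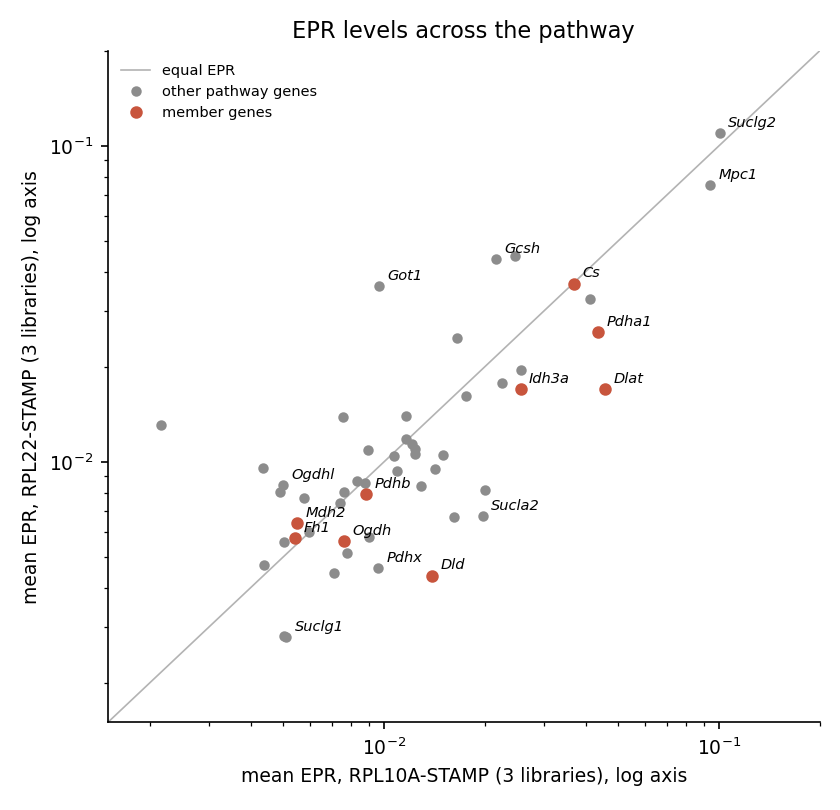
Mean EPR as deposited with RPL10A-STAMP (x axis) and RPL22-STAMP (y axis), each over 3 libraries and on a log axis, for the 9 genes (red) and the other pathway genes edited in at least 1 library of each group (grey), with the line of equal EPR. *Dlat* (0.0457 and 0.0170) and *Dld* (0.0139 and 0.00437) lie below the line, *Got1* lies above it and *Cs* lies on it.

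EPR of cell type markers was read as a description, since it cannot give the share of each cell type. A marker at 0 may have no edits or no reads. All 11 neuronal markers were edited in all 6 libraries, with summed EPR of 0.231 to 0.286 with RPL10A-STAMP and 0.194 to 0.224 with RPL22-STAMP. Of 5 astrocyte markers 4 were edited in all 6 libraries, with sums of 0.156 to 0.180 and 0.103 to 0.165. Of 5 oligodendrocyte markers 1 was, with *Mag* and *Mog* at 0 throughout and sums of 0.00358 to 0.0886 and 0.0126 to 0.0577. Of 5 microglial markers none was, 4 were at 0 in every library (*P2ry12*, *Tmem119*, *Aif1* and *Csf1r*) and the sums reached at most 0.0143 and 0.0364, and the 3 endothelial markers were at 0 in every library. EPR is not an RNA level, and the part of other cells in the differences above was not tested.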

How the data were processed

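Per the methods, the authors used cutadapt for trimming, STAR for alignment of the single-end reads to mm10 (at most 10 locations each), SAILOR for edits and featureCounts for reads. They deposited 1 ratio per gene and library, EPR, without scaling between libraries. The gene annotation and the strand setting of the counting are not given in the sources used here. Of 31053 gene identifiers, 31011 were named through GENCODE release 21 and 42 were not.

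The libraries were scaled to a common median EPR, the geometric mean of their 6 medians, taken over the 8046 genes edited in every library. Log2(scaled EPR + 0.01) was fitted with limma 3.58.1 (R 4.3.3, variance trend), with Benjamini-Hochberg adjustment over the 8046 genes and a threshold of 0.05. Copies were searched with BLAST 2.17.0 against GRCm38 (runs of at least 50 bases). Python 3.11.15 was used otherwise.

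The member genes, the pathway list and the markers were chosen with earlier results of these data known. Named genes are the 9 members, 10 core subunits, called pathway genes, the 3 genes most like *Dlat* and listed genes at 0. *Got2*, *Pdk2*, *Pdpr*, *Dhtkd1* and *Aco1* were named after their values were seen. The result of 1 gene of the pathway list is not reported here, though the counts include it. The study names the replicates biological in one place and technical in another, so p-values measure the spread between these libraries. Deviations of scaled log2 EPR from the group mean were hardly correlated between libraries of the same replicate number (0.044, 0.046 and -0.0055). This cannot show whether such libraries were prepared together, since scaling removed any difference common to a whole library. At most 11 genes with an EPR above 0 had equal values in any 2 libraries. Alternatives varied the pseudocount, scaling, filter, replicate block, GC and length trends and test, and left out each library. The methods state a two-sided t-test per gene on EPR for another comparison, neurons with and without BDNF treatment. That test, here on scaled EPR of the 2 variants, is called the methods' t-test below.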

Additional observations from a re-analysis of the deposited data

How the results depend on the processing

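Of 352 values of the named genes under 16 alternative settings, 282 kept their direction and their side of the threshold, 54 lost a call and 16 changed sign. The count of called genes, 1149 of 8046, was 754 with a filter of 3 or more edited libraries, 569 with no filter, 603 with the replicate number as a block, 663 with the trend with GC content removed, 227 with that and the replicate block, 698 with the methods' t-test on unlogged values, and 369 (without RPL10A-STAMP replicate 3) to 873 when single libraries were left out. Without scaling, 1085 genes were called, 88.1% of them higher with RPL10A-STAMP, against 59.6% of the 1149, and 809 were shared. Of the 4 calls among the other pathway genes, 2 remained without scaling, with the filter of 3 edited libraries, with the replicate block, with the GC trend removed and with the methods' t-test, 1 with no filter and with the GC trend removed under the replicate block, and 1 or 2 without single libraries, where 1 to 4 genes were called in all. These included *Dhtkd1* without RPL10A-STAMP replicate 2 and *Pdk2* and *Aco1* without RPL22-STAMP replicate 1, which the full set of libraries did not call. Of the 2 calls among the 9 member genes, 0 remained with the filter of 3 edited libraries, with no filter, with the replicate block, with the GC trend removed with or without that block, and with the methods' t-test, and 0 to 2 without single libraries. *Got1* lost its call with the methods' t-test (adjusted p = 0.0591) and in no other setting.

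Without scaling, the log2 fold change changed sign to 0.0752 for *Pdhb*, 0.0082 for *Cs*, 0.124 for *Dlst* and 0.115 for *Sdha*. With the GC trend removed, with or without the replicate block, it changed sign to 0.0477 for *Mdh2*, 0.0356 for *Dlst* and 0.0730 for *Sdhb*, and with the length trend removed to 0.0322 for *Pdhb* and -0.0156 for *Ogdh*. Without single libraries it ranged from -0.049 to 0.0851 for *Ogdh* and from -0.344 to 0.0268 for *Sdhb*. The number of neighbouring pairs, of 8, that kept their order of level in every library was 2, and 1 to 3 without single libraries. The causes were not tested. Differences of genes with low EPR, *Fh1*, *Mdh2* and *Ogdh* among them, are compressed by the pseudocount, and the reads behind them are unknown.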

Other observations

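Of the subunits of succinyl-CoA ligase, *Suclg2* and *Suclg1* lay near opposite ends of the EPR range and *Sucla2* at the 46.3rd percentile. *Suclg2*, the GTP-forming beta subunit, had a mean EPR of 0.1004 ± 0.0244 (SD, n = 3) for RPL10A-STAMP against 0.109 ± 0.0167 (SD, n = 3) for RPL22-STAMP, at the 98.6th percentile of the level over all edited genes. *Suclg1*, the alpha subunit that it shares with *Sucla2*, had 0.00511 ± 0.00144 (SD, n = 3) and 0.00279 ± 0.00122 (SD, n = 3), at the 1.83rd percentile. Neither passed the test between the variants (limma adjusted p = 0.213 for *Suclg2* and 0.58 for *Suclg1*). *Sucla2* was 3.48 to 4.39 times *Suclg1* in the RPL10A-STAMP libraries and 1.90 to 4.65 times in the RPL22-STAMP libraries.

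*Mpc1*, a subunit of the mitochondrial pyruvate carrier, was the only other pathway gene near the level of *Suclg2*, with 0.0942 and 0.0753, and was named after its values were seen. Runs of at least 50 bases with an exact copy elsewhere in the genome covered 61.7% of its transcript. *Gldc*, like *Pdk4*, was listed at 0 in all 6 libraries, and *Me3*, *Pck2*, *Lipt2*, *Bckdha* and *Bckdk* were at 0 in at least 1. Whether a gene at 0 had no edits or no reads cannot be told from the ratio.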
